A study of Mus musculus with 4 samples.

Results

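The 53 genes described here are cell cycle and DNA replication genes of mouse liver, chosen by symbol among the 27027 entries of the deposited count table. They comprise 12 genes of G1 phase and its inhibitors, 17 genes of DNA replication and 24 genes of mitosis. All 53 symbols were found in the table. The study asked which genes are expressed in liver while it recovers from acetaminophen (APAP) overdose, a common cause of drug-induced liver failure. Male C57BL/6J mice aged 9 to 12 weeks were fasted for 10 h and then injected intraperitoneally with 0.9% NaCl solution (control) or with APAP at 300 mg/kg. Liver was taken after 24 h or 48 h. Hepatic RNA of 6 mice per control group and of 7 mice per APAP group was pooled, and each of the 4 pools was sequenced once by MACE, a method that reads the 3' ends of polyadenylated mRNA. With 1 library per group there was no replicate check, so the errors given are counting errors and every comparison is between libraries.

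Most hepatocytes of adult liver are quiescent and re-enter the cell cycle after injury. Mitogens induce Myc and the D-type cyclins, cyclin D with Cdk4 or Cdk6 and cyclin E with Cdk2 release E2F factors from their repressors, and E2F factors turn on the genes that load the replicative helicase and supply nucleotides. Genes of mitosis follow later, under B-Myb and FoxM1 complexes that act through CHR elements in their promoters. Many of these promoters also hold CCAAT boxes.

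The libraries held 4859661 reads for control 24 h, 5191990 for control 48 h, 5698778 for APAP 24 h and 4938164 for APAP 48 h. Normalised reads are reads divided by a size factor for each library. The hepatocyte markers fitted the labelled tissue: 9 of 10 listed markers were in the table, and Alb, which encodes serum albumin, had 208729 to 254523 reads per library. Against this background the cell cycle genes were sparse. The 53 genes together had 954 reads in control 24 h, 1172 in control 48 h, 1478 in APAP 24 h and 1595 in APAP 48 h. Only 22 of the 53 reached 20 reads in any library, namely 8 of 12 G1 genes, 11 of 17 replication genes and 3 of 24 mitosis genes. At the other end, 11 genes had no read in at least 1 library, and 4 mitosis genes stayed at 3 reads or fewer in all 4 libraries. A library with no read of a gene can still hold it at a level worth up to 3 reads, which was used as the floor. With 5 reads in the control pool, 19 reads in the APAP pool were needed at 24 h for a gene to be called, and 17 at 48 h, so smaller differences in weakly read genes were not detectable at this depth.

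**Figure D1:**
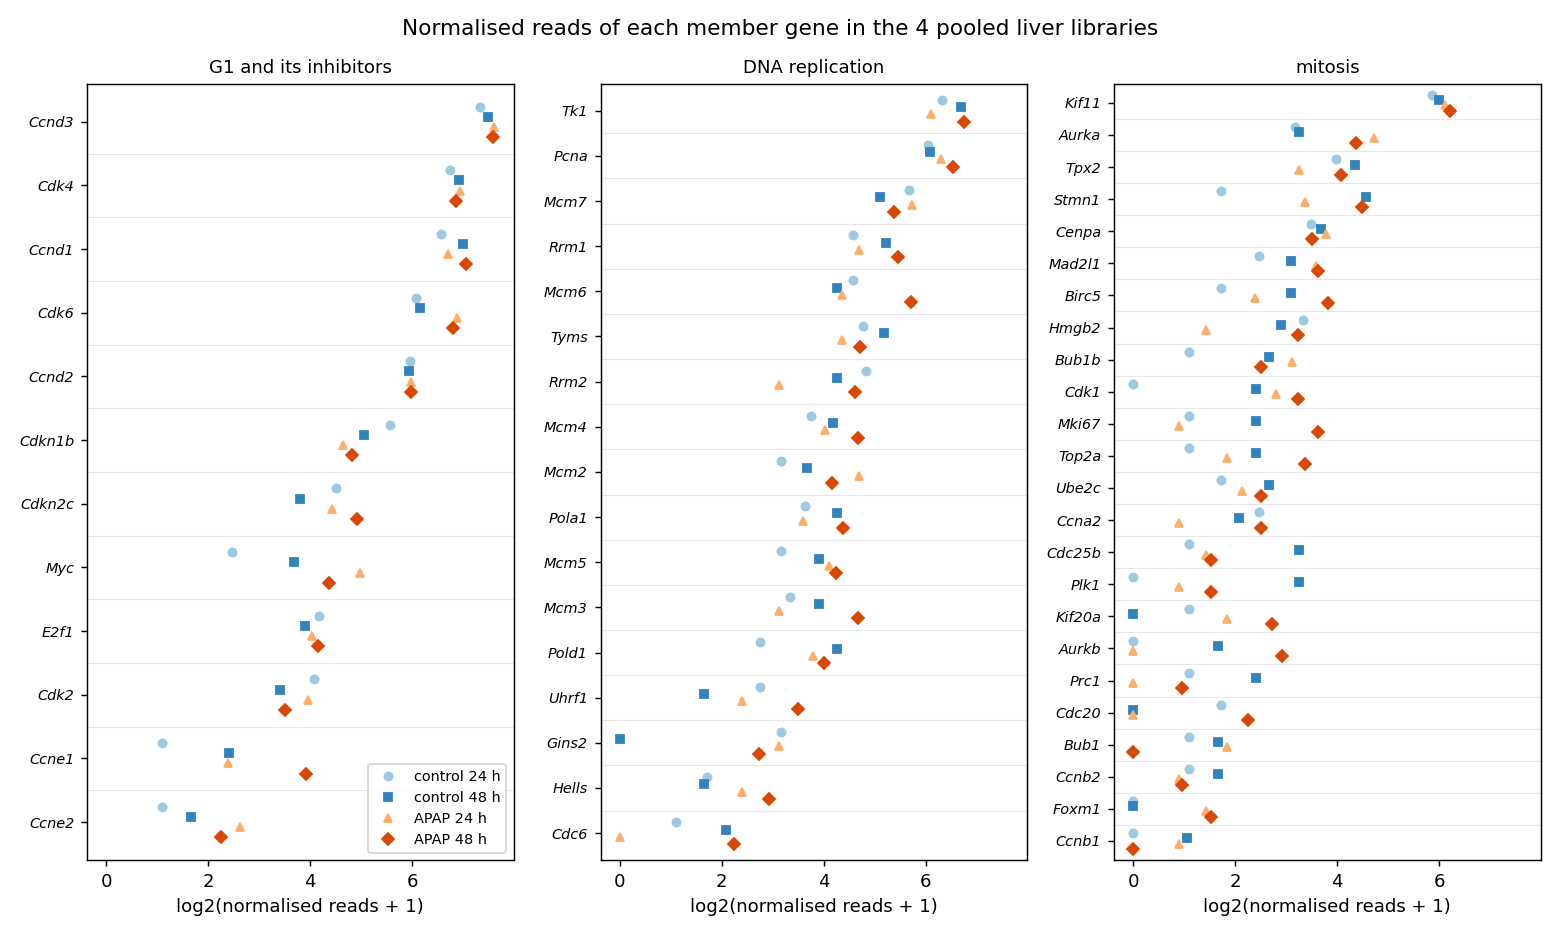
Normalised reads of the 53 genes in the 4 pooled libraries, on a log2 scale after adding 1, with the genes ordered within each phase by their summed level and 1 point per library. The D-type cyclins, Cdk4, Cdk6, Tk1, Pcna and Kif11 lie far to the right, and most mitosis genes lie near the left edge.

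The members were followed by the phase of the cycle in which their products act, a grouping that their promoters also showed. RefSeq promoters (GRCm38.p6, 250 bases before to 50 bases after the transcription start) were found for 41 of the 53 genes, 5 of which had more than 1, giving 46 promoters. Both strands were searched for an E2F motif spelled TTTCCCGC, TTTCGCGC, TTTGCCGC or TTTGGCGC, for the CHR motif TTTGAA and for the CCAAT box. Matches may overlap, as 2 of those before Mcm6 do. The E2F motif was in 9 of 17 replication promoters (52.9%), in 1 of 19 mitosis promoters (5.26%) and in 1 of 10 G1 promoters, against 2.26% of all 32851 promoters. The CHR motif was in 14 of 19 mitosis promoters (73.7%), in 1 of 17 replication promoters (5.88%) and in none of the G1 promoters, against 17.9% of all promoters. A CCAAT box was in 17 of the 19 mitosis promoters (89.5%), in 12 replication promoters (70.6%) and in 4 G1 promoters (40.0%), against 37.4% of all. CHR and CCAAT occurred together in 73.7% of mitosis promoters and in 6.95% of all promoters. These shares describe the letters in the window and are no measure of factor binding.

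**Figure D2:**
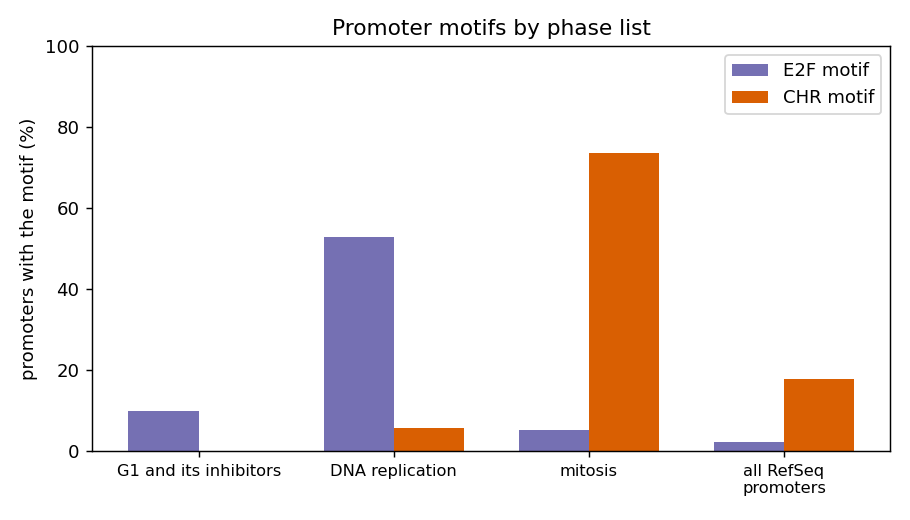
Percentage of promoters (y axis) with an E2F motif or a CHR motif in each phase list and among all RefSeq promoters of the same length. E2F motifs reach 52.9% in the replication list and CHR motifs 73.7% in the mitosis list, against 2.26% and 17.9% of all promoters.

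Promoters of 4 genes called in a comparison of libraries are shown, picked as examples of the contrast between the phases. Mcm3 and Mki67 were called only between the APAP libraries and not against control. Other called members do not show the contrast. The Mcm2 window held a CHR motif and no E2F motif, that of Rrm2 no E2F motif, and that of Birc5 none of the motifs. Mcm6 (chr1:128359656-128359955, minus strand) and Mcm3 (chr1:20820263-20820562, minus strand) encode subunits of the replicative helicase, and Aurka (chr2:172370521-172370820, minus strand) and Mki67 (chr7:135716330-135716629, minus strand) are mitosis genes. Sequences run 5' to 3' on the gene's strand, and capitals mark matches to the E2F, CHR or CCAAT motif.
Mcm6: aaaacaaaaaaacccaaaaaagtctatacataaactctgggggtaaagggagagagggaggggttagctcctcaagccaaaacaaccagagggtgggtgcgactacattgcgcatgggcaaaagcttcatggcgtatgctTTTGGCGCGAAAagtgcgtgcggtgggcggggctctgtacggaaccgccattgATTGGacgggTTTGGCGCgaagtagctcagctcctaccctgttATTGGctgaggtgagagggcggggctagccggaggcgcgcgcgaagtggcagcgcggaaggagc
Mcm3: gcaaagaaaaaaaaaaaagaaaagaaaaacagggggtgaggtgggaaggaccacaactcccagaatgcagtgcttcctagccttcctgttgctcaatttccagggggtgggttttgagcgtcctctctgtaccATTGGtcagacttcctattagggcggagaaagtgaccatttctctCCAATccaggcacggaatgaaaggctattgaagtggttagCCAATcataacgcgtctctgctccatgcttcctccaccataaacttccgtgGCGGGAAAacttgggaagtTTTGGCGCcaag
Aurka: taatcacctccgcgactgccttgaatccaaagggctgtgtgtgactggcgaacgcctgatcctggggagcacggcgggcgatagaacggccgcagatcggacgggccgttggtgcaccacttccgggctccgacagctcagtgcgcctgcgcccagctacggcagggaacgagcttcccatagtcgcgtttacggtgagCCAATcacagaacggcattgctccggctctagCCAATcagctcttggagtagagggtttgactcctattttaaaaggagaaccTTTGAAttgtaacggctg
Mki67: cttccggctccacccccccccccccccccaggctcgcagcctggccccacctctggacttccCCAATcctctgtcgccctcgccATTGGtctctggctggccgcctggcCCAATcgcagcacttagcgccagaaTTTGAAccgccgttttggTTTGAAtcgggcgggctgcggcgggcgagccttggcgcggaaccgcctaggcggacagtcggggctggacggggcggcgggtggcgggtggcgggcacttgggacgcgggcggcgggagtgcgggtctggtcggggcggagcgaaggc
The window of Mcm6 held 3 E2F motifs and that of Mcm3 held 2, while both had no CHR motif. The windows of Aurka and Mki67 held 1 and 2 CHR motifs and no E2F motif. CCAAT boxes were present in all 4.

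The first question was whether the cell cycle genes as a group were higher after APAP than in the control of the same time. At 24 h, 40 of the 53 genes had more than 3 reads in at least 1 of the libraries compared. Of these, 3 were called higher after APAP (7.50%), against 4.85% of all 16095 genes tested, and 2 were called lower (5.0%), against 4.73% of all. A gene was called when its normalised reads differed at least 2-fold, with counts below 3 set to 3, and the 95% exact interval of the ratio left out 1. At 48 h, 49 genes could be compared, 4 were called higher (8.16%), against 5.0% of all 16018 genes, and 0 were called lower, against 4.57% of all. With a floor of 10 reads the genes called higher at 48 h were Cdkn2c and Mcm6, 2 of 33 (4.03% of all genes). The shares at 24 h were close to those of all genes. The median log2 fold of the members was 0.17 at 24 h and 0.28 at 48 h, and that of all genes was -0.00 and 0.02. At 48 h, 37 of the 49 genes had a ratio above 1 (75.5%), compared with 51.3% of all genes.

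The reads were also summed over each phase. The 12 G1 genes had 595 normalised reads in control 24 h and 711 in APAP 24 h, a fold of 1.2 (95% interval 1.07 to 1.34). At 48 h the same genes had 642 and 729 normalised reads, a fold of 1.13 (1.02 to 1.26). Replication genes were at 364 and 374 normalised reads at 24 h, a fold of 1.03 (0.888 to 1.19). At 48 h they were at 412 in control and 527 after APAP, a fold of 1.28 (1.12 to 1.46), so the APAP 48 h library held the most replication reads of the 4. Mitosis genes had 126 and 174 normalised reads at 24 h, a fold of 1.38 (1.09 to 1.75), and 203 and 240 at 48 h, a fold of 1.18 (0.978 to 1.44). The mitosis difference at 24 h depended on which control pool was used, since the fold was 0.857 (0.70 to 1.05) against the control pool of 48 h. The control pools themselves differed in the mitosis genes, with 1.61 times as many normalised reads at 48 h as at 24 h (1.26 to 2.05). The fold of the replication genes at 48 h was 1.24 times that at 24 h (1.02 to 1.52), and for the G1 and mitosis genes this ratio of folds was 0.948 (0.812 to 1.11) and 0.860 (0.631 to 1.17). In these bulk samples, fewer cells of a type and less RNA per cell cannot be told apart.

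**Figure D3:**
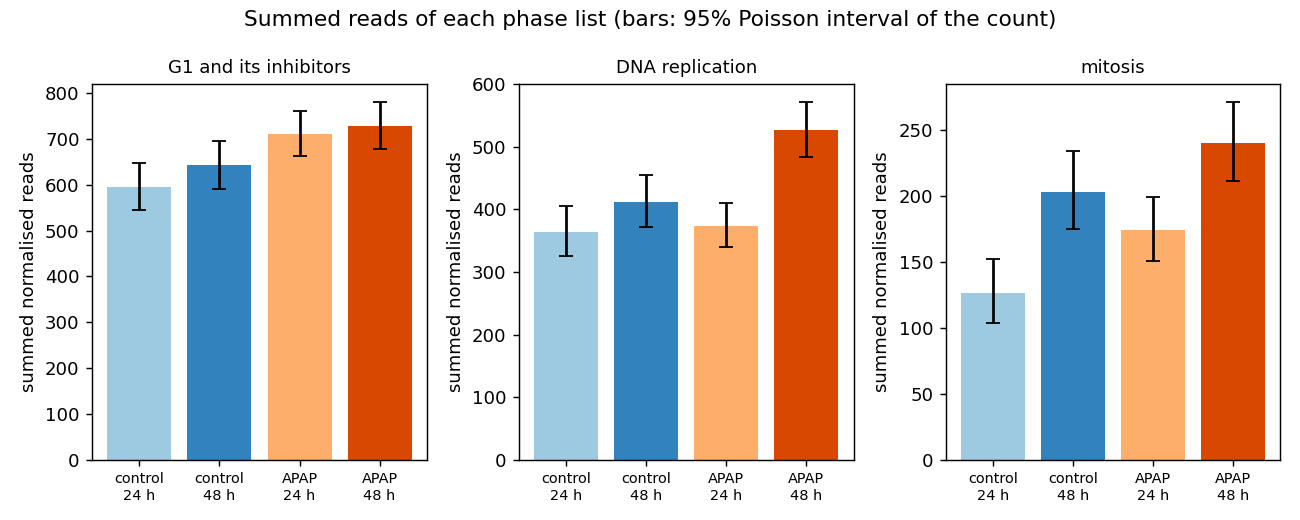
Summed normalised reads (y axis) of the G1, replication and mitosis lists in each of the 4 libraries, with 95% Poisson intervals of the count as error bars. The replication list reached 527 in APAP 48 h, above 364 to 412 in the other libraries, and the mitosis list was lowest in control 24 h at 126.

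Among the G1 genes, the transcription factor gene Myc, an early response gene of regenerating liver on chr15:61985391-61990374 (GRCm38), was called higher after APAP at 24 h. Myc had 4 reads in control 24 h, 11 in control 48 h, 36 in APAP 24 h and 21 in APAP 48 h. Both APAP libraries lay above both control libraries. It was 6.74-fold above control at 24 h (2.42 to 26.1), and at 48 h the ratio was 1.67 (0.770 to 3.83). This was the one member with an interval wholly above 2-fold at either time. Its size rested on the 4 reads of control 24 h, and against the control pool of the other time the folds were 2.60 (1.29 to 5.66) at 24 h and 4.33 (1.46 to 17.3) at 48 h. Ccne1, which encodes cyclin E1, had 1, 4, 5 and 15 reads in the same order of libraries. It was called higher at 48 h, 3.28-fold (1.05 to 13.6), and was highest in APAP 48 h. Its relative Ccne2 stayed at 1 to 6 reads. Cdkn2c, which encodes the Cdk4 and Cdk6 inhibitor p18, was also called higher at 48 h, 2.26-fold (1.13 to 4.83), on 19, 12, 24 and 31 reads. Part of that difference was a low value in control 48 h, since APAP 48 h held 29.1 normalised reads and control 24 h 21.6.

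The D-type cyclins, Cdk4 and Cdk6 were among the best read members, and none was called. Ccnd1 had 82 and 118 reads in the control libraries and 121 and 140 in the APAP libraries, with folds of 1.11 (0.828 to 1.48) at 24 h and 1.04 (0.806 to 1.34) at 48 h. For Ccnd2 the folds were 1.01 (0.703 to 1.47) and 1.03 (0.711 to 1.5), and for Ccnd3 1.21 (0.978 to 1.5) and 1.06 (0.862 to 1.31). These intervals leave out a 2-fold change for all 3 D-type cyclins at both times. Cdk4, the partner kinase of the D cyclins, was at 1.14 (0.875 to 1.5) and 0.952 (0.731 to 1.24). Cdk6, the second such kinase, had 58 and 65 reads in control and 137 and 117 after APAP. Its folds of 1.77 (1.29 to 2.45) and 1.57 (1.15 to 2.17) lay off 1 at both times but under 2. Cdkn1b, which encodes the Cdk2 inhibitor p27, had 41 and 30 reads in control and 28 and 29 after APAP, 0.512 times control (0.305 to 0.848) at 24 h and 0.845 times (0.490 to 1.46) at 48 h. Cdk2 had 9 to 17 reads and E2f1 13 to 18, with no call for either.

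Among the replication genes, 1 of 16 was called higher and 1 lower at 24 h (6.25% each, near the 4.85% and 4.73% of all genes), and 2 of 17 were called higher at 48 h (11.8%, against 5.0%). Mcm2 to Mcm7 encode the 6 subunits of the replicative helicase, and they did not move as one. Mcm6 on chr1:128331590-128359664 had 20 reads in control 24 h, 17 in control 48 h, 23 in APAP 24 h and 55 in APAP 48 h. The APAP 48 h library stood alone, 2.83-fold above its control (1.62 to 5.20), while the fold at 24 h was 0.862 (0.453 to 1.65). Mcm2 on chr6:88883474-88898780 had 7, 11, 29 and 18 reads. It was called at 24 h, 3.10-fold (1.33 to 8.39), and not at 48 h, 1.43-fold (0.640 to 3.35). Mcm3 had 8, 13, 9 and 26 reads. Mcm3, Mcm4 and Mcm5 had their highest normalised reads in APAP 48 h, and their 48 h folds were 1.75 (0.867 to 3.71), 1.42 (0.734 to 2.83) and 1.28 (0.599 to 2.82). Mcm7 had 44, 31, 61 and 43 reads with folds of 1.04 and 1.21. The table merges it with the microRNA genes Mir25 and Mir93, which lie inside it. Gins2, a subunit of the GINS complex that activates the helicase, had 7, 0, 9 and 6 reads, so that its value turned on the empty control 48 h library.

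The nucleotide supply genes differed between members. Rrm2 on chr12:24708241-24714146 encodes the small subunit of ribonucleotide reductase, whose level peaks in S phase. It had 24 reads in control 24 h, 17 in control 48 h, 9 in APAP 24 h and 25 in APAP 48 h. APAP 24 h was the low library, 3.56-fold below its control (ratio 0.281, 0.115 to 0.626), and at 48 h the ratio was 1.29 (0.667 to 2.54). Rrm1, the large subunit, was at 20, 34, 29 and 46 reads, with folds of 1.09 and 1.18 that were not called. Tyms, thymidylate synthase, had 23 reads or more in every library and ratios of 0.749 and 0.716. Tk1, thymidine kinase, had 69, 96, 80 and 114 reads, and its folds of 0.869 (0.622 to 1.22) and 1.04 (0.785 to 1.38) leave out a 2-fold change. Pcna, the sliding clamp of the replication fork, had 57 and 62 reads in control and 92 and 98 after APAP. Its folds were 1.21 (0.860 to 1.71) and 1.38 (0.996 to 1.93), above 1 at both times without being called. Uhrf1, which maintains DNA methylation at the fork, was called higher at 48 h on few reads (5, 2, 5 and 11). Its ratio was 4.81 (1.05 to 44.7), or 3.21 with the floor of 3 reads. The polymerase subunit genes Pola1 and Pold1 had 5 to 21 reads and were not called in either APAP comparison. Cdc6, which loads the helicase, and Hells, a chromatin remodeller, had 0 to 7 reads and no call in any comparison.

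At 48 h, 15 of the 17 replication genes had a ratio above 1 (88.2%), against 51.3% of all genes, and their log2 folds had a median of 0.36. The count at 24 h was 8 of 16, and the median 0.01. Single replication genes were thus mostly below the size that could be called, while most ratios of the list lay above 1 at 48 h. The control pools differed in this list too. From control 24 h to control 48 h its median log2 fold was 0.44, with 10 of 15 ratios above 1. A difference of this size was thus present between libraries without APAP. Against the control pool of 24 h the median at 48 h was larger, at 0.86, a value that includes the difference between the control pools.

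**Figure D4:**
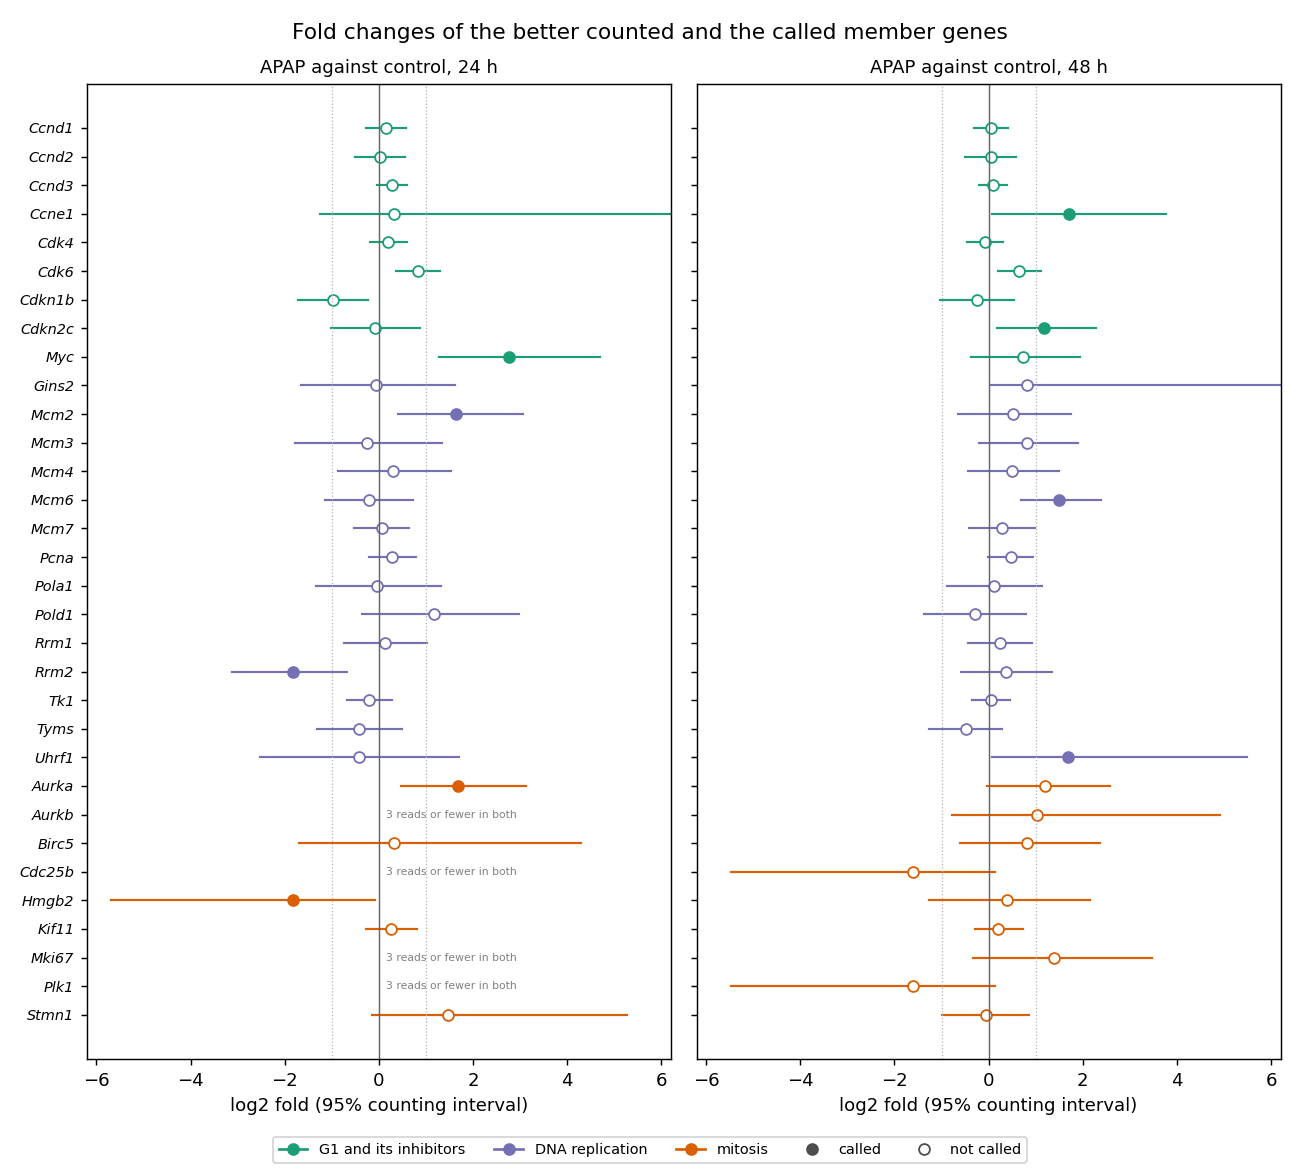
Log2 fold of APAP against control at 24 h (left) and 48 h (right) for members with at least 20 reads in a library or a call in any comparison, with 95% exact counting intervals as lines and counts below 3 set to 3 for the points. Filled points are called genes: Myc, Mcm2 and Aurka higher and Rrm2 and Hmgb2 lower at 24 h, and Ccne1, Cdkn2c, Mcm6 and Uhrf1 higher at 48 h.

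The mitosis genes were the least read. Kif11, a spindle motor kinesin, carried 50, 59, 80 and 78 of the mitosis reads, with folds of 1.2 (0.832 to 1.74) and 1.16 (0.814 to 1.65). Aurka, the centrosomal kinase on chr2:172356190-172370535, had 7, 8, 30 and 21 reads. Both APAP libraries lay above both control libraries, and the folds were 3.21 (1.38 to 8.66) at 24 h, which was called, and 2.30 (0.977 to 5.99) at 48 h, which was not. Hmgb2, a chromatin protein gene, had 8, 6, 2 and 9 reads and was called lower at 24 h. Its ratio was 0.187 (0.0194 to 0.939), or 0.281 with the floor of 3 reads. Its 3' end shares at least 95% of its letters with several other loci, so reads may have been lost or gained there.

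Of the mitosis genes, Mki67, Top2a and Birc5 had 1 to 5 reads in the 24 h libraries, while some others were higher in APAP 24 h than in its control. Mki67, the Ki-67 antigen gene used as a proliferation marker, had 1 read in control 24 h, 4 in control 48 h, 1 in APAP 24 h and 12 in APAP 48 h. Top2a, which untangles sister chromatids, followed with 1, 4, 3 and 10 reads. Birc5, the survivin gene of the chromosomal passenger complex, had 2, 7, 5 and 14 reads. Each of these 3 was highest in APAP 48 h, second in control 48 h, and was not called against control at either time. The ratios at 48 h were 2.62 (0.795 to 11.2) for Mki67, 2.19 (0.631 to 9.55) for Top2a and 1.75 (0.661 to 5.12) for Birc5. Cdk1, the kinase that drives entry into mitosis, had 0, 4, 7 and 9 reads. Its fold at 24 h was 1.75 with the empty control set to 3 reads, and the interval of the ratio began at 1.08. It was not called. The mitotic cyclin gene Ccnb1 had 0, 1, 1 and 0 reads, Ccnb2 1, 2, 1 and 1, and the transcription factor gene Foxm1 0, 0, 2 and 2, too few for any fold. Plk1, a polo-like kinase, and Cdc25b, a Cdk phosphatase, had their highest value in a control library, with 0, 8, 1 and 2 and with 1, 8, 2 and 2 reads. The remaining mitosis members, Ccna2, Cdc20, Bub1, Bub1b, Mad2l1, Ube2c, Cenpa, Kif20a, Tpx2 and Prc1, had 0 to 18 reads and no call against control. Among them Bub1b had 1 read in control 24 h and 9 in APAP 24 h, Mad2l1 4 and 13, and Tpx2 13 and 10. Of the 12 mitosis genes compared at 24 h, 8 had a ratio above 1 (66.7%, against 49.0% of all genes) and 4 below.

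The second comparison was between the times. APAP 48 h against APAP 24 h called 9 of 46 members higher (19.6%), against 2.90% of all 16358 genes tested, and 0 lower, against 2.81%. The 9 were Ccne1, Mcm3, Mcm6, Rrm2, Mki67, Birc5, Aurkb, Hmgb2 and Stmn1. Mcm6 differed 2.63-fold (1.59 to 4.49), Mcm3 3.18-fold (1.44 to 7.71) and Rrm2 3.06-fold (1.38 to 7.45). Mki67 had a ratio of 13.2 (1.95 to 565) on 1 and 12 reads, or 4.40 with the floor of 3 reads. Aurkb, the kinase of the chromosomal passenger complex, was at 0 and 7 reads. It was 2.57-fold higher with the empty library set to 3 reads, and the interval of the ratio began at 1.59. Tk1 was 1.57-fold (1.17 to 2.11) and Rrm1 1.75-fold (1.07 to 2.88) higher, both with an interval off 1 and under 2-fold. By phase, 1 of 12 G1, 3 of 17 replication and 5 of 17 mitosis genes were called higher, with median log2 folds of -0.02, 0.62 and 0.88. The count rested in part on weakly read genes: with a floor of 10 reads 4 of 33 members were called (2.15% of all genes), and among genes that reached 20 reads in either library 4 of 22 (2.46%). In both cases these were Mcm3, Mcm6, Rrm2 and Stmn1, so that Stmn1 was the 1 mitosis gene left.

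The control pools were compared in the same way. Control 48 h against control 24 h called 4 of 43 members higher (9.30%), against 2.04% of all 15459 genes tested, and 1 lower (2.33%), against 1.79%. The 4 were Pold1, Cdc25b, Plk1 and Stmn1, and the lower gene was Gins2. Stmn1, a microtubule destabilising protein gene, had 2 reads in control 24 h and 21 in control 48 h, and 11 and 23 in the APAP libraries. The ratio of its control reads was 9.90 (2.42 to 87.1), or 6.60 with the floor of 3 reads. With the empty library set to 3 reads, Plk1, at 0 and 8 reads, was 2.52-fold higher, and the interval of its ratio began at 1.61. Set in the same way, Gins2, at 7 and 0 reads, was 2.47-fold lower, and the interval of its ratio ended at 0.654. With a floor of 10 reads 0 of 27 members were called higher and 0 lower (1.28% and 1.19% of all genes). The median log2 fold of the members from 24 h to 48 h was 0.33 in the control pools and 0.48 in the APAP pools, so it was above 0 without APAP too.

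Whether the fold between the APAP and control libraries differed between the times was examined with an exact test of the ratio of the folds, which compares these 4 libraries under counting error and does not test the effect of APAP. None of the 53 genes passed an adjusted p of 0.05 (Benjamini-Hochberg over 24767 genes), against 3.85% of all genes, and 4 had an unadjusted p under 0.05, a level that 11.4% of all genes reached. Rrm2 came nearest, with a fold at 48 h 4.58 times that at 24 h (1.55 to 13.9, exact test, adjusted p = 0.0595). For Mcm6 this ratio was 3.28 (1.35 to 7.97, exact test, adjusted p = 0.117), and for Myc it was 0.248 (0.0520 to 0.992, exact test, adjusted p = 0.388). Thus no member's fold was shown to differ between the times in these libraries.

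The choice of control mattered for the members at 48 h. Against the control pool of 24 h, 10 members were called higher (4.96% of all genes were), and against the sum of both control pools 11 of 49 were (5.40% of all). The 11 were Ccne1, Myc, Mcm3, Mcm6, Cdk1, Mki67, Top2a, Birc5, Aurka, Aurkb and Kif20a, whereas Cdkn2c and Uhrf1 were no longer among them. Ccne1 and Mcm6 were called higher at 48 h against all 3 choices of control.

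Other genes of the same pathways were listed to see whether the members were alone. Of 129 listed genes 128 were in the table. At 24 h, 5 of 96 were called higher (5.21%) and 5 lower (5.21%), where 4.85% and 4.73% of all genes were. At 48 h, 10 of 108 were called higher (9.26%) and 3 lower (2.78%), where 5.0% and 4.57% of all genes were. The shares at 24 h were close to those of all genes. The strongest was Cdkn1a, which encodes the p53 target and Cdk inhibitor p21. It had 32 and 51 reads in control and 399 and 223 after APAP, 9.34-fold above control at 24 h (6.51 to 13.8) and 3.82-fold above it at 48 h (2.81 to 5.29). The p57 inhibitor gene Cdkn1c had 5 and 5 reads in control and 15 and 24 after APAP, a fold of 4.20 (1.57 to 14.1) at 48 h. Jun, a subunit gene of the AP-1 factor, had 34, 33, 197 and 53 reads, 4.34-fold (3.0 to 6.45) at 24 h and 1.40-fold (0.893 to 2.24) at 48 h. At 24 h the intervals of Cdkn1a and Jun lay wholly above those of the 3 D-type cyclins.

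Further pathway genes were called on fewer reads. Of the replication factors, Gins1 had 4, 11, 24 and 11 reads (4.49-fold at 24 h, 1.54 to 17.8) and the primase subunit gene Prim2 20, 3, 16 and 19 (5.54-fold at 48 h, 1.63 to 29.2), where the low value was in control 48 h. E2f2, an activating E2F gene, had 1, 9, 11 and 2 reads and was called higher at 24 h and lower at 48 h. Of the mitosis genes, Racgap1, needed for cytokinesis, had 2 and 3 reads in control and 19 and 13 after APAP and was called higher at both times. Incenp, a passenger complex gene, had 0, 1, 6 and 14 reads, and Cdca3 and Kif22 had 14 and 11 reads in APAP 48 h against 3 and 0 in its control. Lin9, a subunit gene of the complex that binds CHR elements, was called higher at 48 h, 3.15-fold (1.13 to 10.8). Cenpm, a centromere protein gene, went the other way, with 17 and 38 reads in control and 9 and 7 after APAP, and was called lower at both times. Summed over the list, the other G1 and inhibitor genes were at 1.81-fold (1.63 to 2.00) and 1.49-fold (1.35 to 1.66). Cdkn1a and Jun held 399 and 197 of the 1279 reads of this list in APAP 24 h. The median log2 fold of the list was 0.24 at 24 h and 0.37 at 48 h. Summed in the same way, the other replication genes were at 1.02-fold (0.947 to 1.10) and 0.979-fold (0.906 to 1.06). The other mitosis genes were at 0.948-fold (0.874 to 1.03) and 1.08-fold (0.997 to 1.17). The 48 h difference of the replication members was therefore not seen in the summed reads of the wider replication list.

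**Figure D5:**
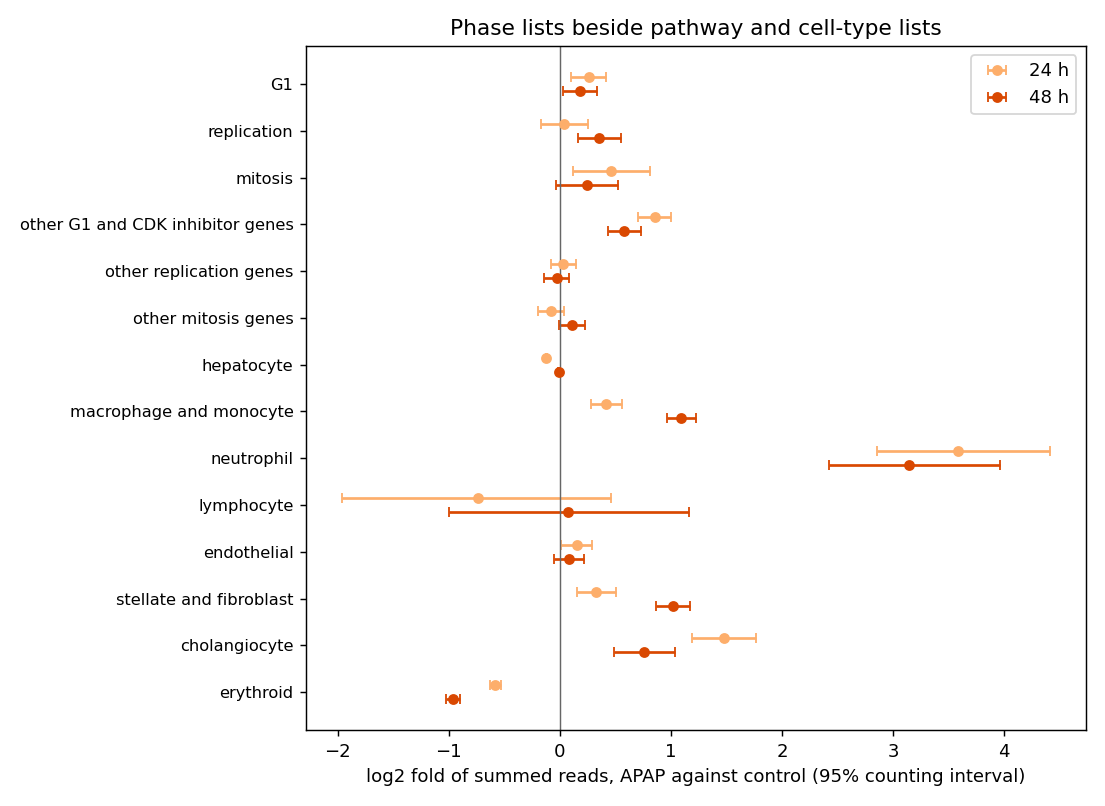
Log2 fold of the summed reads (x axis), APAP against control at 24 h and 48 h, for the member lists, the wider pathway lists and the cell type marker lists (y axis), with 95% counting intervals. The 3 member lists lie between 0 and 0.5, while the neutrophil and cholangiocyte lists and, at 48 h, the macrophage and the stellate lists lie further to the right and the erythroid list lies to the left.

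Markers of several other cell types differed between the APAP and control libraries. Of all genes, 4.85% were called higher and 4.73% lower at 24 h, and 5.0% and 4.57% at 48 h. Of 10 macrophage and monocyte markers, 4 were called higher at 24 h and 6 at 48 h. Their summed normalised reads were 708 and 738 in the control libraries, 947 in APAP 24 h and 1574 in APAP 48 h. Not all 10 were higher: Clec4f, Adgre1 and Csf1r had ratios of 0.534, 0.793 and 0.995 at 24 h. At 48 h the ratios of these genes were 0.985, 1.14 and 0.936. Of 7 stellate and fibroblast markers, 1 and then 4 were called higher, with sums of 487 and 516 in control, 611 in APAP 24 h and 1044 in APAP 48 h. At 24 h 4 ratios lay above 1, while Lrat, Col3a1 and Reln were at 0.557, 0.694 and 0.957. At 48 h 5 lay above 1, while Lrat and Reln were at 0.832 and 0.846. Neutrophil markers summed to 18.2 in both controls, 218 in APAP 24 h and 161 in APAP 48 h, with 3 of 5 and 3 of 4 called higher, while Elane had 0 reads in both controls and in APAP 48 h. The macrophage and the stellate lists, like the replication members, were highest in APAP 48 h. The part of these cells in the results on cell cycle genes was not tested. Of the endothelial markers 1 of 7 was called higher at each time and of the cholangiocyte markers 1 of 5. The cholangiocyte sum was 2.78-fold (2.28 to 3.41) at 24 h and 1.69-fold (1.40 to 2.05) at 48 h. Most of these reads were of Sox9 and Spp1. At 48 h the other 3 of the 5, Krt7, Krt19 and Epcam, had ratios of 0.219, 0.538 and 0.612 on few reads. The median log2 fold of the cholangiocyte list at 48 h was -0.71. The erythroid sums went the other way, at 0.668-fold and 0.514-fold, with 2 of 4 markers called lower at 48 h. Most of these reads were of Hba-a1 and Hbb-bt. At 24 h 3 of 4 ratios lay below 1, while Tfrc was at 1.77 (1.12 to 2.85). The control pools differed too, with an erythroid sum at 48 h of 0.6955 times that at 24 h (0.671 to 0.720). Lymphocyte markers summed to 12 to 18 reads per library, with 0 of 2 called higher at each time and 1 called lower at 24 h. The summed hepatocyte markers were at 0.918-fold at 24 h and 0.992-fold at 48 h.

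Several members share sequence with other loci. In the GENCODE annotation of GRCm38, 10 of the 53 had a last stretch of 300 transcript bases that matched another gene at 95% or more over at least 100 bases. Of the called members these were Rrm2, Hmgb2 and Stmn1. The related loci that the table lists as separate genes had 0 to 2 reads per library for these 3. Over all 53 members, 22 overlapped a gene on the opposite strand and 9 one on the same strand, some of them among those 10.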

How the data were processed

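Per the labels and the study's methods, MACE libraries were prepared from pooled hepatic RNA, duplicates were removed by unique molecular identifiers, reads were trimmed with cutadapt and mapped to mm10, and the authors counted them per gene with HTSeq. The deposited raw read counts of the 4 libraries were used. The 4 columns of per-sample normalised values, and the authors' log2 ratios, p-values and false discovery rates, were not used.

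Counts were divided by DESeq2 1.42.0 median-of-ratios size factors in R 4.3.3 (0.880 to 1.17). With 1 library per group no dispersion can be estimated, so edgeR and DESeq2 tests were not run (edgeR 4.0.16 gave the TMM factors of an alternative). A ratio of 2 counts was given with its 95% Clopper-Pearson interval. Counts below the floor of 3 reads were set to 3 for calls, medians and the log2 folds of single genes. Genes with 3 reads or fewer in both libraries were left out. Ratios printed with an interval, and summed reads, were of the counts without the floor. A call needed a 2-fold difference and an interval off 1. The ratio of the folds at 48 h and 24 h was tested with a two-sided exact conditional test and adjusted by Benjamini-Hochberg over all 24767 genes with reads, which compares libraries and not conditions. Intervals cover counting error only. The scripts were tested on simulated data. Members and lists were chosen with earlier results of these data known. All members may be named, and of the pathway genes the 12 called ones with the largest fold. Mcm10 and Tuba1b were named after their values were seen. Gene positions are from GENCODE vM21, 3' end matches from blastn 2.17.0 and promoters from RefSeq GRCm38.p6.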

Additional observations from a re-analysis of the deposited data

Results flagged for a closer look

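No member passed the test of a difference between its fold at 48 h and at 24 h, and 6 of the 128 listed pathway genes did, where 3.85% of all genes did (exact test, adjusted over all genes with reads, which compares the 4 libraries and not the conditions). With 1 library per group, no sample could be set against others of its own group. Cdkn1a, the p21 gene, was at 9.34-fold at 24 h and 3.82-fold at 48 h, so that the second fold was 0.409 times the first (0.247 to 0.672, exact test, adjusted p = 0.00812). For Jun the ratio of the folds was 0.324 (0.177 to 0.595, exact test, adjusted p = 0.00521). E2f2 had a ratio of 0.0236 (0.000495 to 0.394, exact test, adjusted p = 0.0327), with 1 read in control 24 h and 2 in APAP 48 h. Mcm10, a replication initiation gene, had 89 and 62 reads in control and 44 and 67 after APAP, and a ratio of 2.55 (1.5 to 4.34, exact test, adjusted p = 0.0102). For Prim2 the ratio was 9.24 (2.08 to 55.3, exact test, adjusted p = 0.0246). Tuba1b, an alpha-tubulin gene, had 249 and 151 reads in control and 325 and 300 after APAP, and a ratio of 1.78 (1.36 to 2.31, exact test, adjusted p = 0.000622). In Prim2 and Tuba1b the control pools differed more than the APAP pools did.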

How the results depend on the processing

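No paired analysis was possible because each group has 1 library and the labels carry no replicate numbers. Each count, median and summed fold was recomputed under the alternatives that applied, and 108 of 147 such values kept within their limits. The limits were 1.5 times for a count and the counting interval for a summed fold. A median was judged by an interval from the ordered log2 folds of the list's genes, which reflects the spread between genes and is wide for short lists. TMM factors moved none of the counts of calls, medians or summed folds beyond these limits. Scaling to library totals raised the median log2 fold of all genes to 0.185 at 24 h and 0.287 at 48 h, and with it the members called higher to 6 and 8 and those called lower at 24 h to 1 (7.52%, 9.05% and 3.11% of all genes). The summed folds then were 1.36 for G1 genes at both times and 1.54 for replication genes at 48 h. With a floor of 10 reads the counts were 1 lower at 24 h, 2 higher at 48 h, 4 higher in APAP 48 h against 24 h, and 0 higher and 0 lower in the controls (4.73%, 4.03%, 2.15%, 1.28% and 1.19% of all genes). With at least 20 reads they were 1, 2, 4, 1 and 0 (4.89%, 5.19%, 2.46%, 1.68% and 1.36%). With at least 5-fold they were 1 higher and 0 lower at 24 h, 0 higher at 48 h, 0 higher in APAP 48 h against 24 h, and 1 higher and 0 lower in the controls (0.795%, 0.634%, 0.474%, 0.128%, 0.0970% and 0.0970%). With an interval past 2-fold they were the same numbers (1.31%, 1.45%, 0.949%, 0.306%, 0.136% and 0.175%). At 1.5-fold, 5 were higher at 24 h and 7 at 48 h (8.77% and 8.23%). Against the control pool of the other time, 4 were lower at 24 h and 10 higher at 48 h (5.70% and 4.96%), the median log2 fold of the replication genes at 48 h was 0.860, and the summed mitosis fold was 0.857 at 24 h, on the other side of 1, and 1.90 at 48 h. Against the sum of both pools, 11 were higher at 48 h (5.40%) and the summed mitosis folds were 1.05 and 1.45. Judged by an unadjusted interval, 3 of the 53 members had a ratio of the folds with an interval off 1. By the unadjusted p of the exact test, 4 members were under 0.05, a level that 11.4% of all genes reached. The member that differed between these counts was Hmgb2, whose interval included 1 (0.861 to 83.9). No member passed after adjustment, so no fold was shown to differ between the times. Of 317 single-gene values 297 stayed within their interval, and 5 crossed 1: Uhrf1 (0.962), E2f2 at 24 h (0.824) and Kif22 (0.962) with a floor of 10 reads, which by construction sets low counts equal, and E2f2 at 24 h (0.971) and Prim2 at 48 h (0.784) against the other control pool. Apart from that floor and the control pools, the causes were not tested. Depth limits what can be read: 31 of the 53 members had under 20 reads in every library, and pools of 1 library per group give no measure of the spread between mice.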
